A study of Homo sapiens with 8 samples.

Results

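The comparison described here is the difference between the doxycycline responses of a pair of hairpin lines made from LS174T, an established human colon adenocarcinoma cell line (Duke's type B). For each gene, the response of the ASCL2 line (doxycycline minus untreated) was subtracted from the response of the WiNTRLINC1 line. All 8 libraries of the series entered it, 2 in each of 4 groups. The groups were the ASCL2 line without doxycycline, the ASCL2 line with doxycycline, the WiNTRLINC1 line without doxycycline and the WiNTRLINC1 line with doxycycline. Every line carried a Tet repressor and a doxycycline-inducible short hairpin RNA in a modified pTER vector, one aimed at the transcription factor ASCL2 and the other at the long non-coding RNA WiNTRLINC1. Treated cells grew for 3 days with doxycycline at 1 ug/ml, and control cells grew for the same 3 days without it. Cells carrying the WiNTRLINC1 hairpin came from clones screened by RT-PCR, so the lines also differ by clone. No cells with doxycycline and without a hairpin were among the samples, so the effects of hairpin and doxycycline cannot be told apart.

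ASCL2 is a basic helix-loop-helix transcription factor of intestinal stem cells, is switched on by Wnt signalling, and binds E-box sequences in the regulatory DNA of stem cell genes. In the intestinal crypt, Wnt signalling keeps stem and progenitor cells dividing, whereas Notch signalling, KLF4, CDX1 and ATOH1 take part in the choice and maturation of absorptive and mucus-secreting cells. Colon cancer lines with constant Wnt signalling, such as LS174T, keep parts of both programmes. A short hairpin RNA is processed into a small interfering RNA that lowers transcripts matching its sequence.

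The groups follow the sample titles. In all 8 samples the genotype label gives the target that the title does not. The ASCL2 values do not settle which is right, because ASCL2 fell in both lines. WiNTRLINC1 matched no identifier, so its own values could not be looked at. Replicates are not described as separate cultures in the labels, so each p-value reflects only how these libraries vary, which may be technical. The values of a library summed to between 21524463 and 22941231, and 31503 to 33959 genes had a value above 0. Approximate read numbers, worked out from the gaps that scaling left among low values, lay between 18.4 M and 27.7 M in 7 libraries. The 10 defining markers of colon epithelium summed to 115875 to 233532 per library. CDH1 (E-cadherin) was listed at 486 to 832 and CDX2 at 2241 to 4484. Defining markers of fibroblasts summed to at most 318, of endothelium to at most 242 and of immune cells to at most 120. The fibroblast sum was 314 and 318 in the untreated ASCL2 line against 192 and 196 with doxycycline, a fall carried by COL1A1 (200 and 222 against 60 and 99), while PDGFRB was 54 and 47 against 71 and 66. The endothelial sum there was 212 and 242 against 123 and 126, carried by ESAM. The part of either in the results was not tested. In bulk RNA, fewer cells of a kind and less RNA per cell cannot be told apart.

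Of 22100 genes tested, 3314 responded differently in the 2 lines (15.0%, limma, Benjamini-Hochberg adjusted p under 0.05). The response was more positive in the WiNTRLINC1 line for 1634 genes (7.39%) and more positive in the ASCL2 line for 1680 (7.60%). In 919 of the 3314 the responses differed by at least 2-fold on the log2(value + 1) scale. For comparison, 5884 genes changed with doxycycline in the ASCL2 line (26.6%) and 4104 did so in the other (18.6%). In the ASCL2 line 13.9% of all genes rose and 12.7% fell, and in the WiNTRLINC1 line 9.54% rose and 9.03% fell. Without its doxycycline replicate 2 the ASCL2 line had 3662 changed genes, and without its untreated replicate 1, doxycycline replicate 1 or doxycycline replicate 2 the WiNTRLINC1 line had 2673, 2688 or 2393. The called share rose with the level of a gene, from 2.41% at a mean value below 50 to 27.8% at 5000 and above. Among protein-coding genes it was 20.2%, and among protein-coding genes averaging 50 or more it was 24.4%. The last 2 shares are the ones to read the functional groups against, since those consist of protein-coding genes.

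The 3314 genes fell into classes by what each line did. A gene counted as changed in the ASCL2 line only when it was called there, was not called in the WiNTRLINC1 line, and had a 95% interval there within 1.5-fold either way. By that rule 1283 genes (5.81% of those tested) responded in the ASCL2 line only, of which 578 rose and 705 fell. The same rule with the lines exchanged gave 741 genes (3.35%), of which 292 rose and 449 fell in the WiNTRLINC1 line only. Opposite responses were found for 428 genes (1.94%): 240 rose in the ASCL2 line but fell in the WiNTRLINC1 line, and 188 did the reverse. Another 257 genes (1.16%) moved the same way by different amounts, 162 of them further in the ASCL2 line. In 448 genes a single line was called but the interval of the other was too wide for a one-line class, and in 157 genes neither line alone passed. Without the ASCL2 line's doxycycline replicate 1 or 2 the opposite class held 276 or 246 genes, and without the WiNTRLINC1 line's doxycycline replicate 1 or 2 it held 266 or 251. The same-direction class held 137 to 161 genes without any single library other than the untreated replicates of the ASCL2 line.

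**Figure D1:**
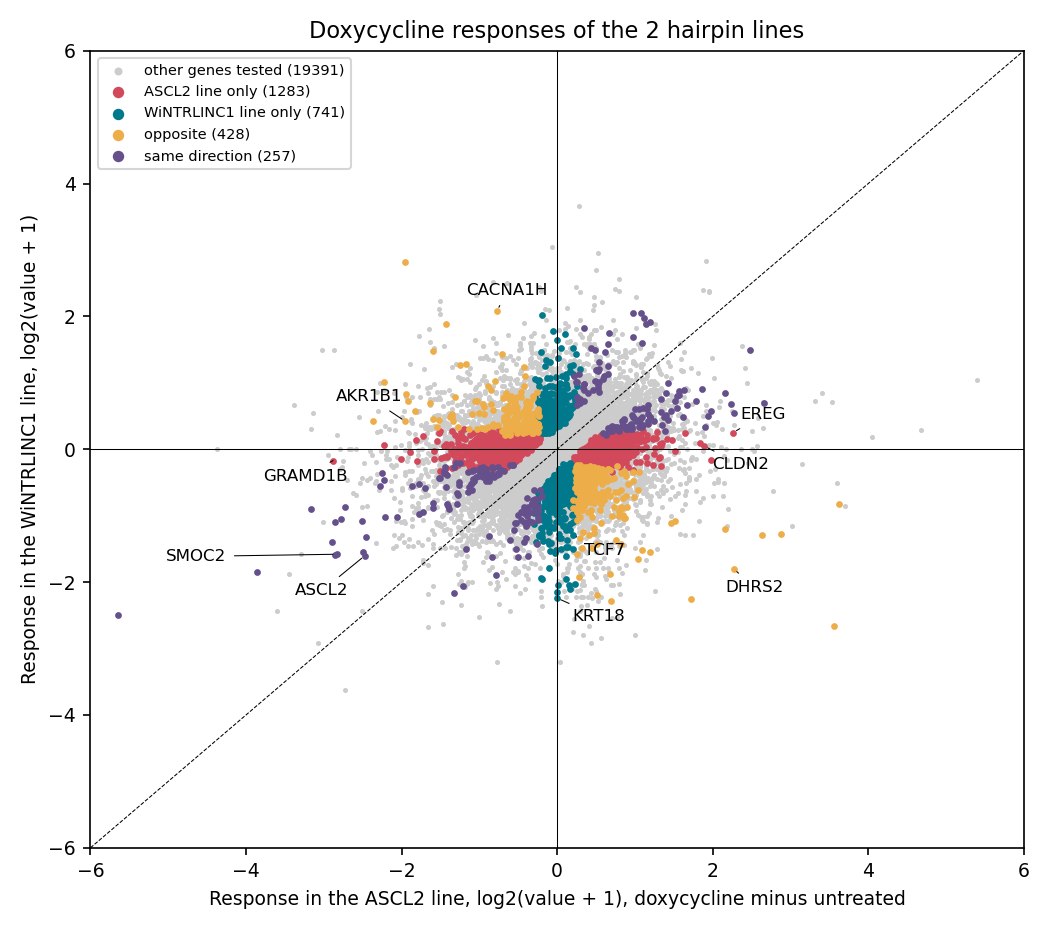
Log2 response to doxycycline in the ASCL2 line (horizontal) and the WiNTRLINC1 line (vertical) for the 22100 genes tested, with colours for 4 classes of called difference. Genes that responded in the ASCL2 line only (1283) lie along the horizontal axis, those of the WiNTRLINC1 line only (741) along the vertical axis, and the 428 with opposite responses in the upper left and lower right. The dashed line marks equal responses.

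The untreated lines already differed before doxycycline in 12203 genes (55.2%), so each gene's untreated level was set beside its response. Untreated means were within 2-fold of each other for 73.8% of all genes tested and for 77.9% of the 3314. They were within 2-fold for 1087 of the 1283 genes of the ASCL2 line only, 608 of the 741 of the WiNTRLINC1 line only and 330 of the 428 with opposite responses. The untreated libraries enter both the response and the untreated level, so these shares are a description and nothing is read from their order. Every gene named below as different kept that call under all 16 alternative analyses in which it was tested, unless a lost call is given beside it.

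Promoters of 4 genes, chosen after their values were seen, show an example of each class: DHRS2 for opposite responses, EPHB3 for the same direction with a larger fall in the ASCL2 line, CLDN2 for the ASCL2 line only and TCF7 for the WiNTRLINC1 line only. Each is the 250 bases before the gene's start in RefSeq, build GRCh38.p14, written 5′ to 3′ along the gene. Capitals mark CAGCTG, an E-box form bound by basic helix-loop-helix factors, which reads the same on both strands. DHRS2 lies at chr14:23629865-23630114 (+ strand), EPHB3 at chr3:184561535-184561784 (+ strand), CLDN2 at chrX:106899914-106900163 (+ strand) and TCF7 at chr5:134115363-134115612 (+ strand).
DHRS2: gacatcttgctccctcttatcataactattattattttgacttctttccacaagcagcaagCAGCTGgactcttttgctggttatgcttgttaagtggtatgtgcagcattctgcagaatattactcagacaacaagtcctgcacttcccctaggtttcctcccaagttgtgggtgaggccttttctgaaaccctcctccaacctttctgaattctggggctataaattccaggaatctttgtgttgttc
EPHB3: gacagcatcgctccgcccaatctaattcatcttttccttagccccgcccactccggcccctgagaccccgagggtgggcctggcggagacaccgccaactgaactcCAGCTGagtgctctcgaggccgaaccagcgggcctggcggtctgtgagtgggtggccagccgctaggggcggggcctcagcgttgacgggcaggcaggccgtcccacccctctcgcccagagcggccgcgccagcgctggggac
CLDN2: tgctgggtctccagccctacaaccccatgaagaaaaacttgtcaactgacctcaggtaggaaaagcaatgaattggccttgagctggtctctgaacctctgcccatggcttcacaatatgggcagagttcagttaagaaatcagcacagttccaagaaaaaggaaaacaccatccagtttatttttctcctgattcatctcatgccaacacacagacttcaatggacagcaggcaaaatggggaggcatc
TCF7: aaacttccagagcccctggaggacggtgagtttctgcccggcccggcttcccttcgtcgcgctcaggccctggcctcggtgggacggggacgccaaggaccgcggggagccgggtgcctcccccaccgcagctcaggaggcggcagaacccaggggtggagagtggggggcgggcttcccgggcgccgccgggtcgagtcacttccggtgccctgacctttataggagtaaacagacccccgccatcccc
The promoters of DHRS2 and EPHB3 hold 1 match each, and those of CLDN2 and TCF7 hold none. A match is a description of letters, not a site. Of 27305 RefSeq promoters of this length 13.8% held CAGCTG, and of the 12264 tested genes with a listed promoter 13.1% did. The share was 11.7% for genes of the ASCL2 line only, 11.4% for the WiNTRLINC1 line only, 14.2% for opposite responses and 18.6% for the same direction.

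ASCL2 fell with doxycycline in both lines and fell further in the line named for it. Its values were 2855 and 3373 untreated and 532 and 586 with doxycycline in the ASCL2 line, against 2540 and 2034 untreated and 805 and 697 with doxycycline in the WiNTRLINC1 line. No treated library overlapped an untreated one. The log2 responses were -2.47 and -1.60, a difference of 0.87 ± 0.165 (SE, adjusted p = 0.00206). Without the filter on low values the adjusted p of this difference was 0.0642, and without the mean-variance trend it was 0.0877, so the call depends on those choices.

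DHRS2, a dehydrogenase/reductase, had the smallest adjusted p among the 428 opposite responses. It was listed at 4303 and 4796 in untreated ASCL2 line cells and at 21131 and 22725 with doxycycline. In the WiNTRLINC1 line it went from 3106 and 3201 to 972 and 846. The lines started within 2-fold of each other and ended far apart, with responses of 2.27 and -1.80 (difference -4.07 ± 0.119, adjusted p = 6.73e-11). METTL7B rose from 960 and 897 to 1534 and 1763 and fell from 653 and 582 to 213 and 248. FA2H, which hydroxylates fatty acids of sphingolipids, rose by 0.80 and fell with a log2 response of -1.01. SLC16A13, a monocarboxylate transporter family member, had responses of 0.76 and -1.37. PLD6, a mitochondrial phospholipase D family member, had responses of 0.90 and -0.87. TRIM16 showed the same pattern (0.83 and -0.89), but it has a near copy, TRIM16L, with which reads may be split. ASB4 also rose in the ASCL2 line (1341 and 1414 to 2766 and 2913) and fell in the WiNTRLINC1 line, where its untreated level was only 60 and 66.

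Other named genes that rose in the ASCL2 line but fell in the WiNTRLINC1 line started from untreated levels within 2-fold of each other. BTG2, an antiproliferative immediate early gene, went from 1127 and 978 to 1489 and 1662 in the first and from 1184 and 1180 to 779 and 855 in the other (difference -1.12 ± 0.136, adjusted p = 5.52e-05). SOX4, a crypt transcription factor, had responses of 0.44 and -0.60, and CDK6, a G1 cyclin-dependent kinase, of 0.43 and -0.52. CD44, a hyaluronan receptor and Wnt target, went from 7026 and 6836 to 8473 and 8280 and from 9136 and 10046 to 6586 and 6872. In none of these genes did treated and untreated libraries of a line overlap. All are genes called in each line, so this adds no separate support. VCL (vinculin, which links integrins to actin) had responses of 0.43 and -0.43, and FHL2, a LIM-domain cofactor, of 0.51 and -0.40. SERPINB1, a protease inhibitor, moved by 0.29 and -0.37, and KDM3A, a hypoxia-induced histone demethylase, by 0.42 and -0.65.

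In the reverse direction, CDH17, the liver-intestine cadherin of enterocytes, started level in the 2 lines. It went from 5193 and 4259 to 2363 and 2248 in the ASCL2 line and from 4588 and 4486 to 7372 and 7735 in the WiNTRLINC1 line. The responses were -1.03 and 0.73, a difference of 1.76 ± 0.123 (adjusted p = 5.98e-07). BIRC5 (survivin, an inhibitor of apoptosis needed in mitosis) also started level, at 2814 and 2457 and at 2848 and 2798. It ended at 1616 and 1675 in the ASCL2 line and at 3671 and 4004 in the WiNTRLINC1 line (difference 1.12 ± 0.117, adjusted p = 1.45e-05). GALNT2, an enzyme that starts mucin-type glycans, had responses of -0.66 and 0.84. PPARG, a nuclear receptor of lipid metabolism and enterocyte maturation, had responses of -0.28 and 0.39. HK1 (hexokinase) moved by -0.34 and 0.51, LAMB2, a laminin chain, by -0.40 and 0.64, and ELK3, a transcription factor downstream of ERK, by -0.53 and 0.55.

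Other opposite responses started from very different levels. CACNA1H, a T-type calcium channel, fell from 2868 and 2657 to 1629 and 1611 in the ASCL2 line and rose from 300 and 254 to 1260 and 1082 in the WiNTRLINC1 line. Its untreated level was lower in the WiNTRLINC1 line by 3.32 on the log2 scale, and after doxycycline the lines lay closer together. KCNK5, a potassium channel, fell from 509 and 417 to 122 and 120 and rose from 54 and 45 to 91 and 75. ANO7 fell from 89 and 104 to 34 and 36 and rose from 31 and 30 to 120 and 111 (difference 3.32 ± 0.329, adjusted p = 9.67e-06), so that the order of the lines turned over. WDR54, SLC2A6 (a glucose transporter family member) and CTSZ (cathepsin Z) also fell in the ASCL2 line and rose in the WiNTRLINC1 line, with differences of 3.24, 1.83 and 1.40. TM4SF1, a tetraspanin-like surface protein, did so from a higher untreated level in the WiNTRLINC1 line (119 and 131 against 603 and 609).

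The ASCL2 line alone raised EREG (epiregulin, a ligand of the EGF receptor) and CLDN2 (claudin 2, a tight junction protein that forms cation pores). EREG went from 839 and 1068 to 4274 and 4797, whereas the WiNTRLINC1 line had 1159 and 1148 untreated and 1277 and 1464 with doxycycline (difference -2.01 ± 0.155, adjusted p = 1.10e-06). CLDN2 went from 2668 and 3397 to 10695 and 11658, with 5265 and 5770 and then 5771 and 5664 in the WiNTRLINC1 line (difference -1.84 ± 0.139, adjusted p = 1.02e-06). Neither gene was called in the WiNTRLINC1 line. GPR137B, a lysosomal membrane protein, rose by 1.84, ERRFI1, a feedback inhibitor of the EGF receptor, by 1.34, and MAP3K14, the kinase of non-canonical NF-kB signalling, by 1.31. Their responses in the WiNTRLINC1 line were 0.10, 0.05 and -0.13. KLF6, a zinc finger factor, went from 2309 and 2204 to 5699 and 5845, against 1083 and 1178 and then 1201 and 1214.

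Falls in the ASCL2 line alone included GRAMD1B, a sterol transport protein, with 993 and 861 untreated and 140 and 111 with doxycycline. In the WiNTRLINC1 line it stood at 1953 and 1964 and at 1746 and 1740, a difference of 2.71 ± 0.159 (adjusted p = 1.54e-07). GPR137 fell from 1005 and 974 to 281 and 283, PLLP (plasmolipin) from 1393 and 1182 to 359 and 419 and TMED10, a cargo receptor of early secretion, from 4626 and 4143 to 1584 and 1528. Their WiNTRLINC1 line responses were 0.14, 0.20 and -0.13. NSMAF, an adaptor of the TNF receptor, fell from 780 and 806 to 277 and 284, with a response of 0.27 in the WiNTRLINC1 line (adjusted p = 0.0534 there). SPINT2, an inhibitor of membrane serine proteases, fell from 13878 and 13308 to 6138 and 5626 (difference 1.38 ± 0.106, adjusted p = 1.10e-06).

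In the WiNTRLINC1 line alone, KRT18 (keratin 18, a structural protein of simple epithelia) fell further than any other named gene of that class. It was listed at 38977 and 36188 untreated and at 8197 and 7734 with doxycycline. The ASCL2 line stood at 60191 and 51706 and at 52219 and 59706, with overlapping groups. The difference was -2.24 ± 0.127 (adjusted p = 1.13e-07). KRT8, its partner in the keratin filament, had 67554 and 64546 and then 65606 and 63926 in the WiNTRLINC1 line, and its responses were not called different (-0.04 ± 0.118, 95% interval -0.29 to 0.22, adjusted p = 0.893). Of 67 genes annotated as KRT18 pseudogenes, 59 were tested and 45 had a more negative response in the WiNTRLINC1 line, with differences of -3.41 to -1.88. None of 47 tested KRT8 pseudogenes was called by limma in either direction, with 10 at an unadjusted p under 0.05. Pseudogenes share sequence with their parent, so these 45 calls are not separate from that of KRT18.

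Further falls in the WiNTRLINC1 line alone were those of TCF7, a transcription factor and target of the Wnt pathway, CENPH, a centromere protein, and MYRIP, a myosin- and Rab-binding protein. TCF7 went from 907 and 919 to 390 and 357, against 1088 and 1067 and then 1156 and 1317 in the ASCL2 line (difference -1.48 ± 0.135, adjusted p = 4.63e-06). CENPH went from 264 and 254 to 58 and 76 and MYRIP from 473 and 536 to 123 and 139. CALD1 (caldesmon, an actin-binding protein) had a response of -0.83 there and of 0.21 in the ASCL2 line. Genes that rose in this line alone included CTSE (cathepsin E), from 218 and 274 to 604 and 634, and COTL1, an F-actin-binding protein, from 883 and 884 to 1813 and 1979. RHOD, a small GTPase, had a response of 1.04. None of these 7 genes was called in the ASCL2 line.

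**Figure D2:**
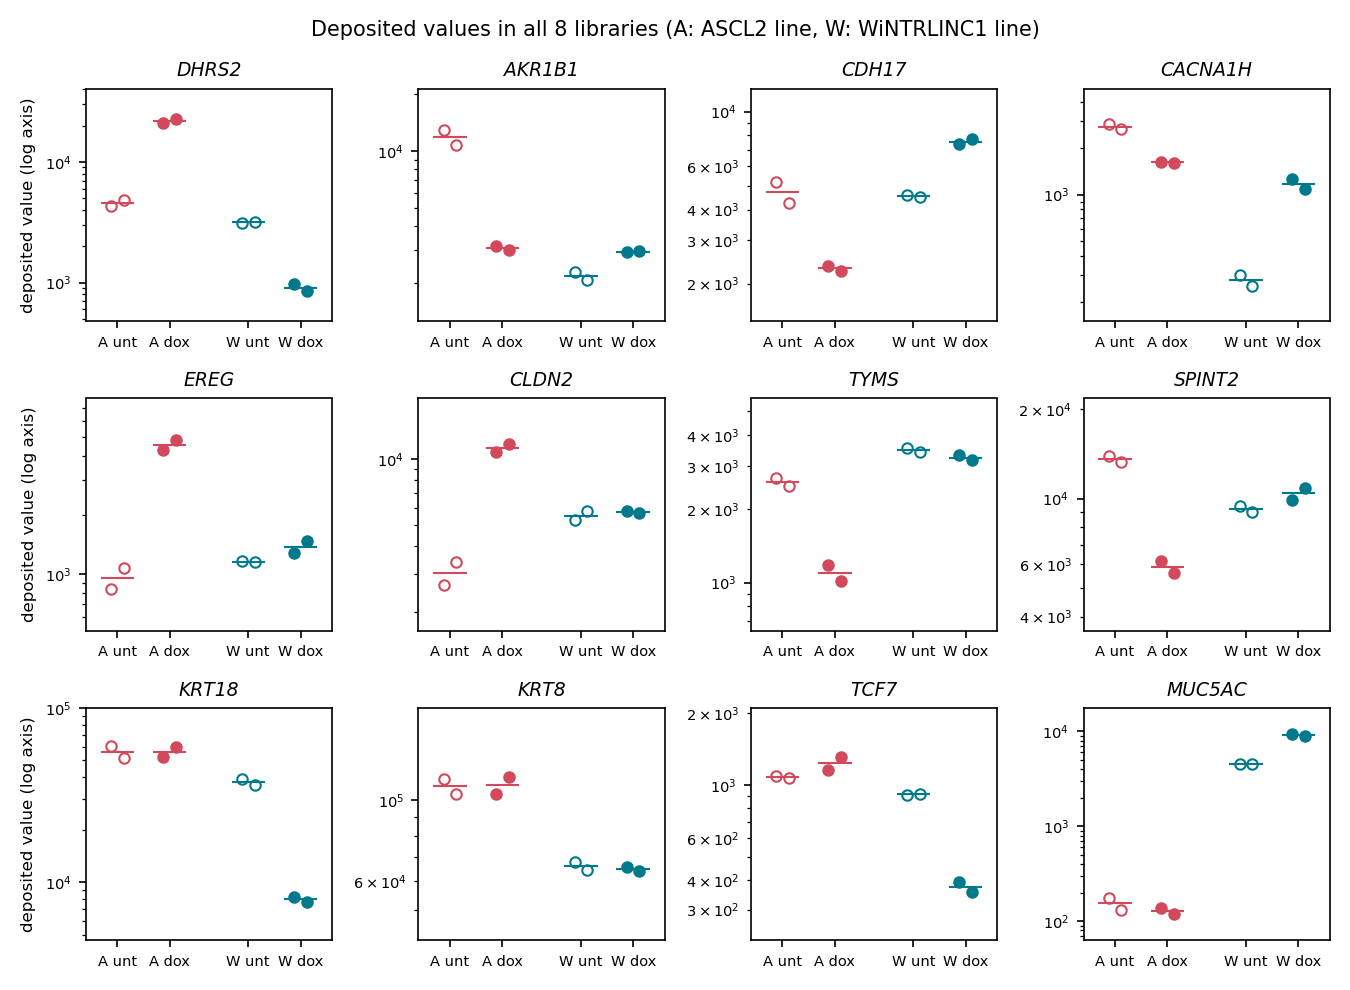
Deposited values of 12 genes in all 8 libraries on log axes (A, ASCL2 line in red; W, WiNTRLINC1 line in blue-green; open points untreated, filled points doxycycline; bars are means of 2 libraries). DHRS2, AKR1B1, CDH17 and CACNA1H moved in opposite directions, EREG, CLDN2, TYMS and SPINT2 moved in the ASCL2 line only, and KRT18, TCF7 and MUC5AC in the WiNTRLINC1 line only. The responses of KRT8 were not called different.

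Gene lists were read by the number of tested members with a different response, beside the 15.0% of all genes and the 24.4% of protein-coding genes averaging 50 or more. Members that rose or fell in a single line are set beside shares over all genes only. Such a share was the lower yardstick for differences and may also be so for single lines. Counts by list also move with the analysis, so the count without the mean-variance trend, under which 1313 of all genes were called, is given with each.

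**Figure D3:**
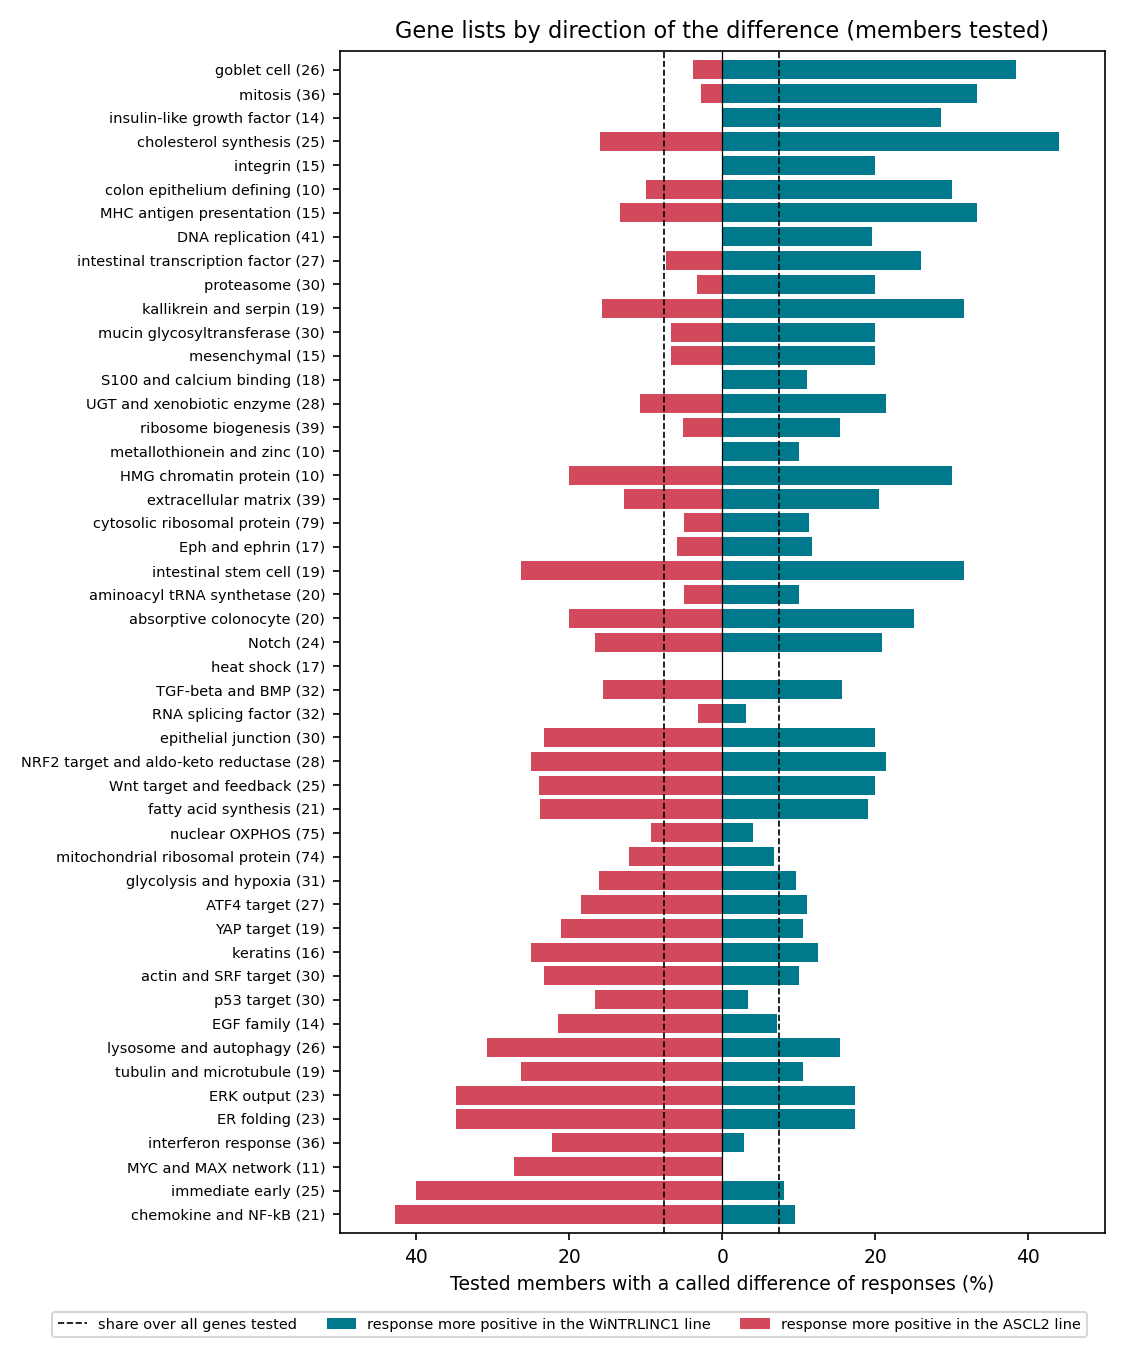
Percentage of tested members of each list (number tested in brackets, lists with at least 10) whose response was more positive in the WiNTRLINC1 line (right) or in the ASCL2 line (left). Dashed lines mark the shares over all genes tested, 7.39% and 7.60%. In either direction this share was 15.0%, below the 24.4% of protein-coding genes averaging 50 or more. Goblet cell and mitosis genes extend mainly to the right, immediate early and chemokine genes mainly to the left.

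Of 41 genes of DNA replication, 28 fell in the ASCL2 line against 14 in the other, and none rose in either, beside the 12.7% and 9.03% of all genes that fell. Only 8 members (19.5%) had different responses, each more negative in the ASCL2 line (3 without the trend, and 5 without the WiNTRLINC1 line's untreated replicate 1). The share of 19.5% was below the 24.4% of protein-coding genes averaging 50 or more. TYMS (thymidylate synthase) went from 2675 and 2480 to 1182 and 1016, against 3535 and 3409 and then 3318 and 3157 in the WiNTRLINC1 line. FEN1, the flap endonuclease of Okazaki fragment processing, had responses of -1.26 and -0.17, and MCM3, a subunit of the replicative helicase, of -1.25 and -0.21. Of 36 mitosis genes, 30 fell and none rose in the ASCL2 line, while 15 fell and 2 rose in the other. Responses differed in 13 (36.1%), 12 of them more negative in the ASCL2 line. PLK1, a mitotic kinase, went from 4575 and 4251 to 2713 and 2772 in the ASCL2 line and from 5175 and 4872 to 4762 and 5086 in the WiNTRLINC1 line. BUB1B, a spindle checkpoint kinase, had responses of -0.74 and 0.12. The mitosis count was 3 without the trend. It lay between 5 and 8 without any 1 of 7 libraries, the exception being the ASCL2 line's untreated replicate 1, and was 5 without the WiNTRLINC1 line's doxycycline replicate 2.

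Most cholesterol synthesis genes rose in each line, and many rose by different amounts. Of 25, 15 rose in the ASCL2 line and 21 in the other line, beside 13.9% and 9.54% of all genes, with medians of 0.38 and 0.60 against 0.01 over all genes in each line. The responses of 15 members differed, 11 more positive in the WiNTRLINC1 line and 4 in the ASCL2 line (3 in all without the trend, 11 to 13 without any single library). INSIG1, which restrains the sterol-sensing factors in the endoplasmic reticulum, went from 2397 and 2548 to 3703 and 4158 in the WiNTRLINC1 line and from 3906 and 4060 to 4173 and 3823 in the ASCL2 line, where it was not called. Its difference of 0.66 ± 0.113 lost its call without the trend (adjusted p = 0.0601). MSMO1, a sterol demethylation enzyme, did the reverse. It rose from 1768 and 1804 to 4617 and 4382 in the ASCL2 line and stood at 838 and 821 and then 633 and 764 in the WiNTRLINC1 line (difference -1.59 ± 0.130, adjusted p = 1.92e-06). HMGCS1, which makes HMG-CoA, rose in both, by 1.57 and 0.82.

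Among 21 fatty acid synthesis genes, 9 (42.9%) differed, 4 more positive in the WiNTRLINC1 line and 5 in the ASCL2 line (3 without the trend). FADS2, a fatty acid desaturase, fell from 8100 and 8435 to 7145 and 6495 in the ASCL2 line and rose from 2998 and 2768 to 4282 and 4114 in the WiNTRLINC1 line. The acyl-CoA synthetases split. ACSL1 rose in the WiNTRLINC1 line only (0.58 against -0.15) and ACSL5 in the ASCL2 line only (1.04 against 0.22).

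Intestinal stem cell genes differed in 11 of 19 tested (57.9%; 10 or 11 without any single library, 7 without the trend), 6 with the more positive response in the WiNTRLINC1 line and 5 in the ASCL2 line. LGR5, the R-spondin receptor that marks crypt stem cells, fell from 553 and 589 to 339 and 296 in the ASCL2 line. The WiNTRLINC1 line held 2858 and 2942 untreated and 2722 and 2952 with doxycycline, a level higher by 2.34 on the log2 scale before treatment. SMOC2, a secreted matricellular stem cell marker, fell in both, from 953 and 997 to 135 and 137 and from 3995 and 3895 to 1249 and 1392 (difference 1.25 ± 0.126, adjusted p = 1.04e-05). EPHB3, a receptor that positions crypt cells, fell from 11343 and 10518 to 4048 and 4019 and, by less, from 14381 and 13350 to 12154 and 10936. RGMB, a BMP co-receptor, went the other way. It fell in the WiNTRLINC1 line from 10726 and 11263 to 5352 and 5592 and was not called in the ASCL2 line, where its untreated level was 1018 and 1183.

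Wnt targets and feedback genes differed in 11 of 25 (44.0%; 10 or 11 without any single library, 7 without the trend), in both directions. NKD1, a feedback inhibitor of Wnt signalling, fell in the WiNTRLINC1 line only, from 1306 and 1312 to 750 and 692, as TCF7 did. CDX1, a homeobox factor of intestinal identity, fell in the ASCL2 line only (-0.52 against 0.23). CCND1 (cyclin D1) rose in both lines, from 10689 and 10423 to 27397 and 28378 in the ASCL2 line and from 10874 and 11016 to 15084 and 16430 in the WiNTRLINC1 line. Untreated levels differed by 0.05 on the log2 scale, and the difference was -0.88 ± 0.099 (adjusted p = 2.81e-05). Notch pathway genes differed in 9 of 24 (37.5%; 3 without the trend). DLL1, a Notch ligand, fell in the ASCL2 line only (-0.67 against 0.16). HES1, a Notch target that represses secretory fate, fell from 1307 and 1273 to 988 and 1010 in the ASCL2 line and rose from 385 and 403 to 559 and 633 in the WiNTRLINC1 line. DTX4, a Notch regulator, had responses of -0.32 and 0.48.

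Goblet cell genes, which make mucus, differed in 11 of 26 tested (42.3%; 8 to 11 without any single library, 5 without the trend), and 10 of the 11 had the more positive response in the WiNTRLINC1 line. In the ASCL2 line 2 of the 26 rose and 11 fell, and in the WiNTRLINC1 line 6 rose and 4 fell. Over all genes 13.9% and 9.54% rose, and 12.7% and 9.03% fell. The untreated WiNTRLINC1 line already held far more of several goblet cell genes. Over the whole list, the median untreated log2 difference (WiNTRLINC1 line minus ASCL2 line) was -0.28, but most members did not start level. Untreated means were within 2-fold for only 8 of the 26, beside 73.8% of all genes tested. Of the 11 members with different responses, 3 were among those 8. MUC5AC, a gel-forming mucin, was 177 and 131 untreated and 139 and 118 with doxycycline in the ASCL2 line, against 4492 and 4546 and then 9456 and 8993 in the WiNTRLINC1 line (difference 1.28 ± 0.175, adjusted p = 0.000149). The trefoil peptide TFF2 fell from 162 and 138 to 86 and 104 in the ASCL2 line and rose from 2617 and 2227 to 4211 and 4105 in the WiNTRLINC1 line. TFF1 rose in the WiNTRLINC1 line only, by 1.08. MUC2, the main mucin of the colon, had responses of -0.22 and 0.46 and lost its call without the trend (adjusted p = 0.0555). KLF4, a factor of goblet cell maturation, rose in both, by 0.26 in the ASCL2 line and by 1.01 in the WiNTRLINC1 line, where it started lower by 1.84.

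Absorptive colonocyte genes differed in 9 of 20 (45.0%; 9 or 10 without any single library, 6 without the trend), 5 in one direction and 4 in the other. PHGR1, an abundant small protein of colon epithelium, fell from 1279 and 1312 to 152 and 134 in the ASCL2 line and from 693 and 659 to 357 and 365 in the WiNTRLINC1 line (difference 2.27 ± 0.152, adjusted p = 4.64e-07). CEACAM6, an adhesion glycoprotein, rose by 0.28 and 1.13. DPP4, a brush border peptidase, rose by 1.37 and 0.48, and PLAC8 by 1.94 and 0.50. ALPI, the intestinal alkaline phosphatase, rose in the ASCL2 line from 20 and 28 to 98 and 117 and was at 9 and 7 and then 5 and 4 in the WiNTRLINC1 line, where a fold cannot be read at such values. Of 27 intestinal transcription factors 9 (33.3%) differed (5 without the trend). FOXQ1, a forkhead factor, rose by 0.34 in the ASCL2 line and from 339 and 326 to 1094 and 1283 in the WiNTRLINC1 line. EHF, an epithelial ETS factor, fell by 1.07 and 0.31 on the log2 scale.

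Junction genes split by protein. Of 30, 13 (43.3%) differed, 6 more positive in the WiNTRLINC1 line and 7 in the ASCL2 line (9 to 12 without any single library, 7 without the trend). Occludin and tricellulin, the related membrane proteins of tight junctions, fell in the WiNTRLINC1 line only. OCLN went from 347 and 327 to 152 and 164 and MARVELD2 from 722 and 702 to 322 and 295, with ASCL2 line responses of 0.21 and 0.11. JUP (plakoglobin, of adherens junctions and desmosomes) fell mainly in the ASCL2 line, from 12290 and 10704 to 4601 and 4506, against 6954 and 6295 and then 5699 and 5305. CLDN1 fell in the ASCL2 line from 157 and 204 to 73 and 67 and was not called in the WiNTRLINC1 line (0.31, adjusted p = 0.241). CLDN4 rose from 6752 and 6368 to 10124 and 10596 in the ASCL2 line and fell from 2768 and 2297 to 2064 and 2054 in the WiNTRLINC1 line.

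Immediate early genes differed in 12 of 25 (48.0%; 11 or 12 without any single library, 6 without the trend), and in 10 of the 12 the response was more positive in the ASCL2 line. In the ASCL2 line 16 of the 25 rose and none fell, and in the WiNTRLINC1 line 6 rose and 4 fell. Over all genes the shares that rose were 13.9% and 9.54%, and 9.03% fell in the WiNTRLINC1 line. EGR1 went from 569 and 808 to 2489 and 3268 in the ASCL2 line and from 103 and 132 to 74 and 93 in the WiNTRLINC1 line (difference -2.56 ± 0.260, adjusted p = 1.13e-05), with a response in the latter that was not called. JUN, a subunit of the AP-1 factor, went from 465 and 456 to 1016 and 1146, against 695 and 727 and then 575 and 636. JUND rose in the ASCL2 line only, by 0.78. Of 23 genes that read out ERK signalling, 14 rose in the ASCL2 line and 15 in the other, beside 13.9% and 9.54% of all genes. Responses of 12 (52.2%) differed, 8 more positive in the ASCL2 line (7 in all without the ASCL2 line's doxycycline replicate 2, 5 without the trend). DUSP5, a phosphatase that switches ERK off, went from 288 and 266 to 994 and 1205 and from 180 and 214 to 319 and 267. SPRED1, an inhibitor of Ras, rose in the WiNTRLINC1 line only, by 0.74.

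Chemokine and NF-kB genes differed in 11 of 21 (52.4%), 9 of them more positive in the ASCL2 line. CXCL1, a neutrophil chemokine, rose from 174 and 138 to 952 and 1018 in the ASCL2 line and from 44 and 51 to 72 and 82 in the WiNTRLINC1 line. CXCL2 and CXCL3 rose in the ASCL2 line by 2.11 and 1.23 and were not called in the other. These 3 genes are close in sequence, so reads may be shared among them. CCL20, which attracts CCR6-bearing cells, rose from 18 and 11 to 92 and 131 and fell from 36 and 31 to 11 and 16 (difference -4.14 ± 0.502, adjusted p = 5.27e-05). The count of 11 was 7 without the ASCL2 line's untreated replicate 1, 5 without its doxycycline replicate 2, 6 without the WiNTRLINC1 line's untreated replicate 1 or doxycycline replicate 2, and 5 without the trend.

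Interferon response genes differed in 9 of 36, a share near the 24.4% above, 8 with the lower response in the WiNTRLINC1 line. The count was 1 without the trend, and 5 without the ASCL2 line's untreated replicate 1 or doxycycline replicate 2 or the WiNTRLINC1 line's doxycycline replicate 1. IRF7, a transcription factor of the interferon response, fell in the WiNTRLINC1 line only, from 930 and 822 to 394 and 338. Antigen presentation genes differed in 7 of 15 (46.7%; 6 or 7 without any single library, 4 without the trend). TAP2, a subunit of the peptide transporter, fell from 444 and 475 to 187 and 173 in the ASCL2 line only. Its partner in peptide loading, TAPBP (tapasin), fell from 1099 and 1004 to 536 and 573 in the WiNTRLINC1 line only. CD74, the invariant chain of class II, fell in both, from 185 and 196 to 33 and 33 and from 619 and 638 to 218 and 211.

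The list of NRF2 targets and aldo-keto reductases, enzymes of redox defence and carbonyl reduction, differed in 13 of 28 (46.4%; 11 to 14 without any single library, 9 without the trend), 6 more positive in the WiNTRLINC1 line and 7 in the ASCL2 line. The aldo-keto reductases AKR1B1, AKR1C1 and AKR1C2 fell in the ASCL2 line and rose in the other. AKR1B1 (aldose reductase) went from 12956 and 10747 to 3135 and 2978 in the first and from 2304 and 2069 to 2918 and 2941 in the other (difference 2.37 ± 0.127, adjusted p = 8.04e-08). AKR1C1 went from 3751 and 2657 to 1221 and 991 and from 5251 and 4992 to 6897 and 7015, and AKR1C2 had responses of -1.38 and 0.49. AKR1C1 and AKR1C2 are near copies, so their values are not independent. HMOX1 (heme oxygenase) and the ferritin chains rose in the ASCL2 line instead. HMOX1 went from 306 and 283 to 893 and 944, against 101 and 113 and then 122 and 133. FTL went from 47886 and 48176 to 98223 and 95364, with a response of 0.13 in the WiNTRLINC1 line that was not called, and FTH1 had responses of 0.58 and -0.30. The multidrug transporters ABCC2 and ABCC3 parted as well: ABCC2 rose in the ASCL2 line only (1.51) and ABCC3 in the WiNTRLINC1 line only (0.96).

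**Figure D4:**
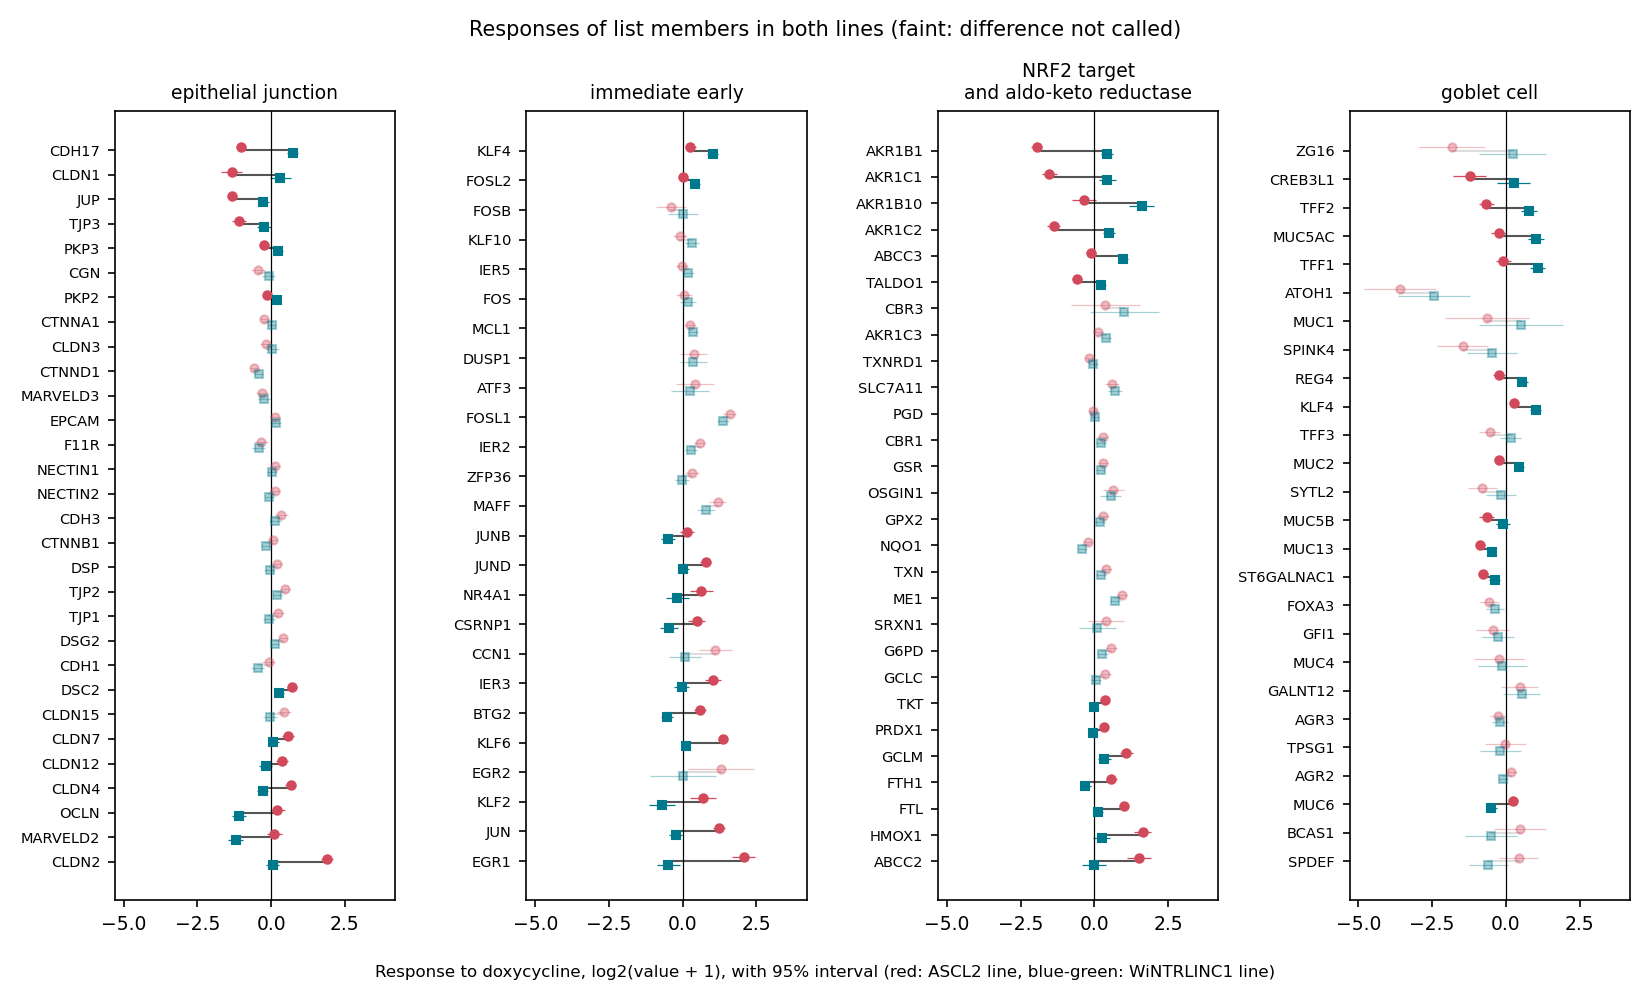
Log2 responses with 95% intervals of the tested members of 4 lists in the ASCL2 line (red circles) and the WiNTRLINC1 line (blue-green squares), ordered by the difference, with members whose difference was not called drawn faint. OCLN and MARVELD2 lie left of 0 in the WiNTRLINC1 line only, most called immediate early genes lie further right in the ASCL2 line, and AKR1B1, AKR1C1 and AKR1C2 lie left of 0 in the ASCL2 line and right of 0 in the WiNTRLINC1 line.

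Enzymes of xenobiotic metabolism differed in 9 of 28 (32.1%, 5 without the trend). CYP1A1, a target of the aryl hydrocarbon receptor, fell from 1140 and 907 to 234 and 198 in the ASCL2 line and from 445 and 440 to 346 and 300 in the WiNTRLINC1 line. CYP1B1, of the same family, rose in the WiNTRLINC1 line only, from 260 and 271 to 519 and 523. Targets of ATF4, the factor of amino acid stress, differed in 8 of 27 (29.6%, near the 24.4% above, 3 without the trend). PHGDH and PSPH, enzymes at the start and end of serine synthesis, differed in opposite directions. PHGDH went from 4325 and 4320 to 1033 and 1715 in the ASCL2 line and stood at 5466 and 5168 and then 6651 and 6633 in the WiNTRLINC1 line (difference 2.02 ± 0.215, adjusted p = 1.74e-05). PSPH fell in both lines and further in the WiNTRLINC1 line (-0.40 and -1.16), as did ATF5 (-0.50 and -1.62).

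Lysosome and autophagy genes rose in the ASCL2 line in 14 of 26 cases and in the WiNTRLINC1 line in 5 of 26, beside 13.9% and 9.54% of all genes. Differences were called in 12 (46.2%; 8 to 11 without any single library, 4 without the trend), 8 of them more positive in the ASCL2 line. SQSTM1 (p62, an autophagy receptor) went from 27923 and 28182 to 52372 and 53188 in the ASCL2 line and from 19617 and 18434 to 18251 and 16792 in the WiNTRLINC1 line (difference -1.03 ± 0.102, adjusted p = 9.67e-06). The lysosomal proteases CTSD and TPP1 rose in the ASCL2 line only, by 0.55 and 0.53, whereas CTSZ, named above, fell there. Targets of p53 differed in 6 of 30, a share below the 24.4% above (4 without the trend). CDKN1A (p21, a cyclin-dependent kinase inhibitor) was one of them, with 5866 and 5204 and then 10163 and 11586 in the ASCL2 line and 5476 and 4952 and then 4890 and 4863 in the WiNTRLINC1 line. Insulin-like growth factor genes differed in 4 of 14 (28.6%, near the 24.4% above, 2 without the trend). TGF-beta and BMP genes differed in 10 of 32 (31.2%), 5 in each direction. The latter count was 6 without either doxycycline replicate of the ASCL2 line and 2 without the trend. IRS2, an insulin receptor substrate, fell by 1.17 on the log2 scale in the ASCL2 line only, and SMAD7, an inhibitor of TGF-beta signalling, fell there only by 1.00. TGFBR2, a TGF-beta receptor, rose there by 0.50.

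In several large housekeeping groups the share of members with different responses was below the 24.4% of protein-coding genes averaging 50 or more. It was 16.5% for 79 cytosolic ribosomal proteins, 18.9% for 74 mitochondrial ribosomal proteins, 13.3% for 75 nuclear genes of oxidative phosphorylation, 15.0% for 20 aminoacyl tRNA synthetases and 6.25% for 32 splicing factors. The 13 cytosolic ribosomal protein calls were 7 and 8 without the WiNTRLINC1 line's untreated and doxycycline replicate 2. The 14 mitochondrial ribosomal protein calls were 9 without either doxycycline replicate of the ASCL2 line and 8 without doxycycline replicate 2 of the WiNTRLINC1 line. The 10 oxidative phosphorylation calls were 6 without either untreated replicate of the ASCL2 line, 5 and 3 without its doxycycline replicates 1 and 2, and 4 and 6 without the untreated and doxycycline replicate 1 of the WiNTRLINC1 line. Without the trend the calls in these 5 groups, in the order given, were 2, 5, 2, 1 and 1. Taken line by line, 29 oxidative phosphorylation genes were higher and 7 lower with doxycycline in the ASCL2 line, against 10 and 6 in the WiNTRLINC1 line. For mitochondrial ribosomal proteins these counts were 25 and 6 against 10 and 3, and for cytosolic ones 7 and 27 against 0 and 9. Over all genes 13.9% were higher and 12.7% lower in the ASCL2 line, against 9.54% and 9.03%. Single members still differed. COX7C, a subunit of cytochrome c oxidase, went from 3435 and 3441 to 4290 and 4612 in the ASCL2 line and from 2734 and 3145 to 1517 and 1858 in the WiNTRLINC1 line. RPS4X fell in the ASCL2 line only (-0.91 against -0.18). RPS12 rose there only (0.43 against -0.16), as 1 of the 7 list members that rose there beside 27 that fell. Ribosomal protein genes have many processed copies that may share reads. None of 17 heat shock genes was called by limma, with 3 at an unadjusted p under 0.05, and none of 9 enteroendocrine genes, with 0 at an unadjusted p under 0.05. Leaving out a single library gave 0 to 2 heat shock calls.

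Where a gene was near absent in a line, a response in the other line only is a matter of detection. Of the 3314 genes, 12 had all 4 values of the ASCL2 line under 10, and 30 had all 4 values of the WiNTRLINC1 line under 10. DKK1, a secreted Wnt inhibitor, was 45 and 8 untreated and 529 and 510 with doxycycline in the ASCL2 line, and 2, 3, 2 and 5 in the WiNTRLINC1 line. RANBP3L went from 284 and 240 to 19 and 7 in the ASCL2 line and was at 0 to 5 in the WiNTRLINC1 line. For both the difference was called (adjusted p = 0.00242 and 0.0075), but the calls were lost without the filter and without the trend. Of the 30 genes, 10 kept the call without any single library, and of the 12 none did. CALB1 (calbindin, a calcium-binding protein) is a case of unequal starting level above that limit. It was 5101 and 5124 and then 6149 and 5316 in the ASCL2 line, and 26 and 33 and then 67 and 75 in the WiNTRLINC1 line, so that its WiNTRLINC1 line response of 1.25 left it far below the level of the ASCL2 line. PLA2G2A, a secreted phospholipase, was the reverse, with 39 and 46 and then 19 and 14 in the ASCL2 line and 712 and 732 and then 662 and 698 in the WiNTRLINC1 line.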

How the data were processed

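RNA of 8 libraries was measured on the Ion Proton. Per the submitters' processing notes, the authors used cutadapt, TopHat2 2.0.9, Cufflinks and DESeq; GRCh37, hg19 and mm9 appear with no role; how reads were counted, and whether by strand, is not given in the sources used here. Reads of overlapping or antisense genes may therefore be mixed. The deposited values were treated as a score: whole numbers whose gaps and pile-ups in 7 of 8 libraries show reads scaled library by library and rounded, so no count model was used. Each library lists 57736 Ensembl identifiers, of which 39501 matched a symbol; the rest held 2.34% of the summed values. WiNTRLINC1 matched no identifier and is not analysed here. GENCODE 29 gave gene types. Genes reaching 10 in 2 or more libraries (22100) were fitted on log2(value + 1) with limma 3.58.1 (R 4.3.3), using a mean-variance trend, 4 groups and no covariates, 4 residual and 10.5 prior degrees of freedom, and Benjamini-Hochberg adjustment over all genes tested. Fold changes on this scale understate changes of low genes. The script was tested on simulated data. A gene was called at an adjusted p under 0.05. The comparison, its classes and the 55 gene lists were chosen with earlier results of these data known. Genes were named by rule: ASCL2, the largest differences, the largest opposite and single-line responses, up to 4 members per list by smallest p, and genes under a value of 10 in a line; KRT8, the cell type markers and 19 other list members (ABCC2, ALPI, CD74, CDK6, CLDN1, CLDN4, CXCL3, ELK3, FTH1, FTL, HMOX1, INSIG1, JUND, LGR5, MUC2, NKD1, OCLN, PSPH and RGMB) were added after their values were seen. Some items are not reported here. Alternatives covered the pseudocount, the filter, the scaling, the prior variance, a replicate block and leaving out each library.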

Additional observations from a re-analysis of the deposited data

Results flagged for a closer look

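The contrast of the 2 lines is itself the test of a difference between groups, and it singled out 3 results. In all, 3314 genes responded differently in the ASCL2 and WiNTRLINC1 lines. Of these, 428 changed in opposite directions. ASCL2, the named target of the ASCL2 line, fell in both lines, and its response differed by 0.87 on the log2 scale, a call that ended without the filter or without the trend. No group held enough libraries to look for a single library far from the others.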

How the results depend on the processing

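No called difference changed direction: the genes called both as reported and under an alternative had the same sign in all 16 alternatives. Another filter, prior variance or replicate block leaves each log2 difference as it was, so no sign could change there. Under the other alternatives, a call in both fits leaves little room for a change of sign. Without the filter on low values the counts were 1914 genes with different responses, 2395 changed in the WiNTRLINC1 line, 180 opposite, 793 in the ASCL2 line only, 456 in the WiNTRLINC1 line only and 95 in the same direction. Without the mean-variance trend they were 1313 different, 3410 changed in the ASCL2 line, 1873 changed in the WiNTRLINC1 line, 118 opposite, 447 in the ASCL2 line only, 297 in the WiNTRLINC1 line only and 47 in the same direction. The cause was not tested. A pseudocount of 10 gave 3469 different genes, a mean value of at least 50 gave 3477 over fewer genes, median-of-ratios scaling gave 3374 and a robust prior gave 3434. Leaving out each library in turn gave 2316 to 2891 different genes, 3662 to 5824 changed in the ASCL2 line, 2393 to 4126 changed in the WiNTRLINC1 line, 246 to 343 opposite, 877 to 1073 in the ASCL2 line only, 494 to 664 in the WiNTRLINC1 line only and 137 to 188 in the same direction; the group left with 1 library was assumed to vary like the others. The labels give replicate numbers but no shared culture or day. Deviations of same-numbered libraries correlated at -0.117 (ASCL2 line) and 0.262 (WiNTRLINC1 line) over 14930 genes. Such values cannot show whether same-numbered libraries were paired, so pairing is unknown. With the replicate block within each line 3511 genes differed, and with a common replicate block 3403. Of 243 named genes with a called difference, 172 kept the call under every alternative in which they were tested. With 2 libraries a group, and few calls at low values, an uncalled difference does not show that the lines responded alike.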
